A study of Mus musculus with 28 samples.

Results

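Cyp26a1 and the retinoid receptors Rara, Rarg, Rxra, Rxrb and Rxrg were followed in mouse liver, each with 1 probe printed as 3 spots, as 6 of the 118 genes on a focused 2-colour array with 120 gene probes. Cyp26a1 was chosen because its ratio to saline was low with both antivirals, and the receptors were chosen by name. The ratios to saline below are therefore a description of these animals. Tests against saline were run over all probes, and whether a gene passed is stated, but nothing is concluded from it for these 6 genes. The test read as a result is the difference between the antivirals, which did not choose the genes.

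All animals were female C57BL/6 mice, 8 to 10 weeks old. Adefovir dipivoxil and tenofovir disoproxil were injected intraperitoneally at 25 mg/kg on 3 days into 5 animals each. The positive control was 4 animals given phenobarbital at 60 mg/kg plus 1 dose of β-naphthoflavone at 80 mg/kg on day 2, an inducing treatment for drug-metabolising enzymes. The mice were killed on day 4, which was 24 hours after the last injection, and the liver total RNA was hybridised against RNA pooled from mice injected with 200 µl of 0.9% saline. The sample labels give 10 saline animals in that pool, and the treatment protocol gives 5. For each antiviral animal 1 array had its RNA in Cy3 and another in Cy5, and each positive-control animal had 1 array with its RNA in Cy3. A further 4 arrays, 2 per dye orientation, carried a pool of positive-control RNA and entered no test.

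Retinoic acid, the active form of vitamin A, binds the retinoic acid receptors (RAR), which sit on DNA as heterodimers with the retinoid X receptors (RXR). In the liver the enzyme CYP26A1 hydroxylates all-trans retinoic acid and so clears it, and its gene is itself switched on by retinoic acid through response elements in its promoter. RXR proteins also pair with many other nuclear receptors of the liver, among them those for fatty acids, bile acids and xenobiotics. The liver stores most of the body's vitamin A in stellate cells, whereas most liver RNA comes from hepatocytes.

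The promoter of Cyp26a1 is shown because it carries a retinoic acid response element of the classic kind, a direct repeat of the receptor half-site with 5 bases between the copies. The window is the 250 bases before the start of transcription in RefSeq's table, at chr19:37697558-37697807 on the plus strand of build GRCm38.p6. Capitals mark the half-sites, which read AGTTCA on the opposite strand.
Cyp26a1 promoter: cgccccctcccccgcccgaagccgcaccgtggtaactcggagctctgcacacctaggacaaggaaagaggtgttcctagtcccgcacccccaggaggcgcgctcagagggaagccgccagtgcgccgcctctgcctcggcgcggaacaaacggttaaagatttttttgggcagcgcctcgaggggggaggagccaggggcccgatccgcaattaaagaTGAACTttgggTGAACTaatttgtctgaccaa
The repeat lies 32 to 16 bases before that start, and the annotated gene record begins upstream of it, inside the window. Promoter windows of the same length from RefSeq were searched on both strands for direct repeats of AGGTCA or AGTTCA, in any combination, with 5 bases of any kind between them. Such a repeat was in 11 of 32851 windows (0.0335%), and in none of the 12 windows of the 5 receptor genes. A single half-site, AGGTCA or AGTTCA on either strand, was in 24.2% of all windows. Among the 12 receptor windows it was in a window of each of Rara, Rarg, Rxra and Rxrg, while their other windows lacked it. No window of Rxrb had it. The 24.2% is a share of windows and not of genes. The array measured RNA only, so these matches describe sequence, and no binding was measured.

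Cyp26a1 had the lowest mean ratio to saline of all 120 gene probes in both antiviral groups. With adefovir the log2 ratio, treated over saline, was -1.32, -1.37, -1.01, -0.66 and -1.0 in animals 1 to 5. With tenofovir it was -0.75, -1.17, -1.47, -0.93 and -1.01. The ratio was thus below 0 in 10 of 10 antiviral animals, and the ranges of the antiviral groups overlapped along most of their length. The mean was -1.07 ± 0.288 (SD, n = 5) for adefovir and -1.07 ± 0.271 (SD, n = 5) for tenofovir. In whole-liver RNA, a lower level per cell and fewer cells that express the gene cannot be told apart.

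The positive-control animals 1 to 4 had Cyp26a1 log2 ratios of -0.47, 0.02, -0.66 and -0.50. Of these, 3 were below 0, and the mean of -0.40 ± 0.297 (SD, n = 4) was 17th from the lowest among the 120 probes. The saline channel of these arrays was not above background for Cyp26a1 on any of the 4, whereas the treated channel was above it on 3. The headers of the same 4 arrays mark the Cy5 channel, which held the saline RNA, as bad, and only 9 to 29 of the 120 probes were above background there. Before scaling within the array the ratio ran the other way on 3 of the 4 arrays, from -0.09 to 1.30 with a mean of 0.52. The receptors also had means above 0 on these arrays before scaling, from 0.24 (Rarg) to 0.67 (Rxra). The Cyp26a1 mean of this group was negative only after each array was scaled to its other probes, and no fold is given. The dye effect taken off these arrays was the mean of the 2 antivirals. With that of adefovir alone the mean was -0.74, and with that of tenofovir alone it was -0.07. With the saline channel not above background, the ratio of treated over saline is at best a lower bound. Such a bound does not show a fall. On the pool arrays Cyp26a1 had -0.91 and -0.39 with the pool in Cy3 and -0.39 and -1.08 with the pool in Cy5. The pool channel was above background on 0 of these 4 arrays and the saline channel on 1.

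**Figure D1:**
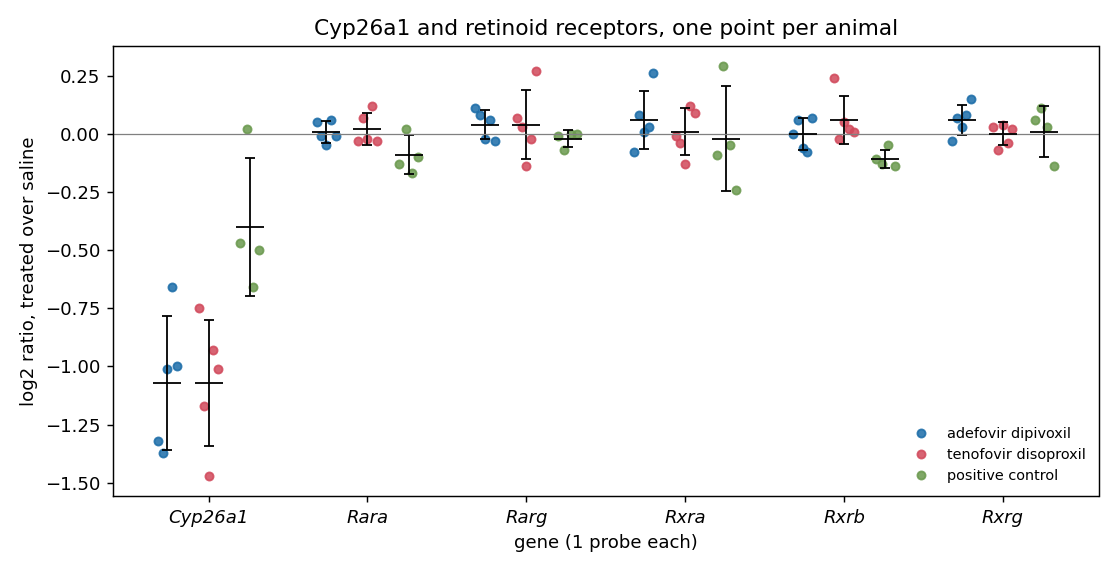
Log2 ratio of treated over saline for each of the 6 genes, with 1 point per animal (5 adefovir, 5 tenofovir, 4 positive control) and bars for the group mean and SD. Cyp26a1 lies between -1.47 and -0.66 in all antiviral animals, and every receptor mean lies between -0.11 and 0.06.

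Detection required the median of a spot to lie more than 2 background SDs over its local background, in at least 2 of the 3 spots of a probe. By that measure the saline channel showed Cyp26a1 on 9 of 10 arrays in each antiviral group. The treated channel showed it on 1 of 10 arrays with adefovir and on 2 of 10 with tenofovir. All 3 of those arrays had the treated RNA in Cy3. Over the local background, the saline signal of the probe had a median of 2.84 (1.41 to 4.98) on the adefovir arrays and 3.89 (1.67 to 5.15) on the tenofovir arrays. The treated signal had medians of 1.20 (0.616 to 1.84) and 1.13 (0.826 to 2.67). In most antiviral livers the treated level is therefore known only as low, and its depth below saline depends on how background is handled. With an offset of 10 in place of 50 in the background correction, the means were -1.57 with adefovir and -1.38 with tenofovir.

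None of the 5 receptors was above background on most arrays in either channel. Rarg, which codes for RARγ, and Rxrg, which codes for RXRγ, were above background in neither channel on any of the 28 arrays. Rara, which codes for RARα, was above background in at least 1 channel on 4 of 28 arrays, Rxra on 8 and Rxrb on 12. RXRα is the main RXR of hepatocytes, and RXRβ is found in most tissues. Treated RNA in Cy5 was not above background for any of the receptors on any of the 10 antiviral arrays of that orientation.

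**Figure D2:**
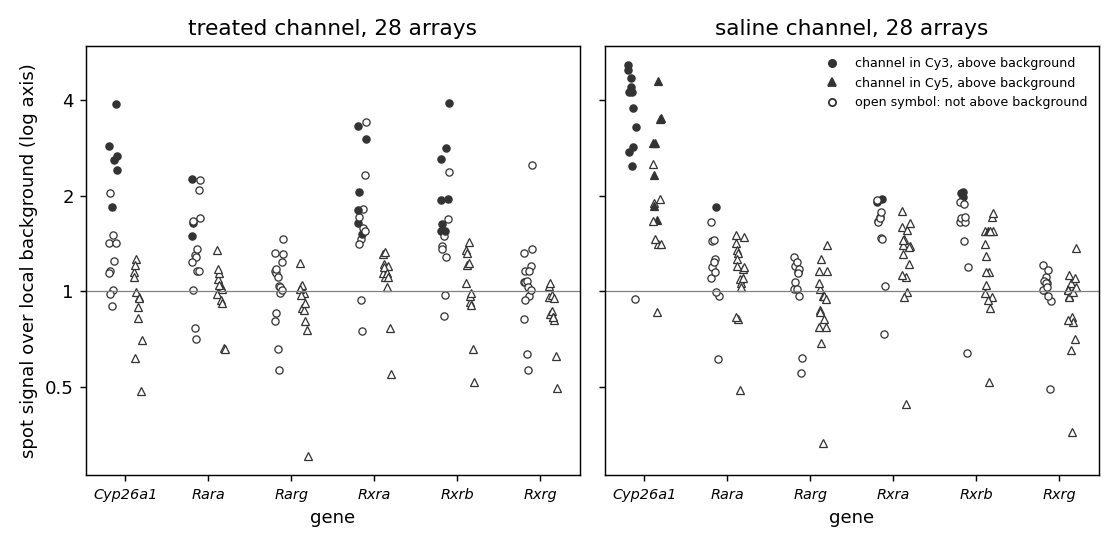
Median spot signal over local background of each gene on the 28 arrays, in the treated channel and in the saline channel, on a log axis. Circles are channels in Cy3 and triangles channels in Cy5, with filled symbols where the probe was above background: Cyp26a1 was so on 19 arrays in the saline channel and on 6 in the treated channel, and Rarg and Rxrg on none.

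After loess scaling the receptor ratios lay close to 0. Rxra had log2 ratios of -0.08, 0.08, 0.01, 0.03 and 0.26 in adefovir animals 1 to 5 and -0.01, -0.04, -0.13, 0.12 and 0.09 in tenofovir animals 1 to 5. Those of the positive-control animals were -0.09, 0.29, -0.05 and -0.24. The 3 groups overlapped, with means of 0.06 ± 0.126 (SD, n = 5), 0.01 ± 0.101 (SD, n = 5) and -0.02 ± 0.224 (SD, n = 4).

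Rxrb had 0.00, 0.06, -0.06, -0.08 and 0.07 with adefovir and 0.24, -0.02, 0.05, 0.02 and 0.01 with tenofovir. In the positive control it had -0.11, -0.13, -0.05 and -0.14, below 0 in 4 of 4 animals, with a mean of -0.11 ± 0.0389 (SD, n = 4). These values have the antiviral dye effect of the probe taken off. Before that step they were -0.04, -0.05, 0.02 and -0.07, with a mean of -0.03. The saline channel was not above background for Rxrb on any of those 4 arrays and the treated channel on 1. The adefovir and tenofovir means were 0.00 ± 0.0677 and 0.06 ± 0.103 (SD, n = 5 each).

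Rara ran from -0.05 to 0.06 with adefovir, from -0.03 to 0.12 with tenofovir and from -0.17 to 0.02 in the positive control, so the groups overlapped. Its means were 0.01 ± 0.0472 (SD, n = 5), 0.02 ± 0.0692 (SD, n = 5) and -0.09 ± 0.0830 (SD, n = 4). Neither channel was above background for Rara on 7 of 10 adefovir, 10 of 10 tenofovir and 3 of 4 positive-control arrays. For Rarg and Rxrg both channels were at background on every array, so their ratios compare background with background and give no fold. These ratios ran from -0.14 to 0.27 for Rarg and from -0.14 to 0.15 for Rxrg over the 14 animals.

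Scaling to other features moved all probes together. The median of all probes was 0.00 with adefovir, 0.02 with tenofovir and 0.00 in the positive control after loess scaling. With the added calibration RNAs as the reference these medians were 0.15, 0.37 and -0.59. Relative to the all-probe median under the 4 other centrings, Cyp26a1 stood at -1.13 with adefovir, -1.21 with tenofovir and -0.44 in the positive control. Unshifted, the receptor means with calibration RNAs as the reference were 0.14 to 0.21 with adefovir, 0.43 to 0.47 with tenofovir and -0.88 to -0.61 in the positive control. Relative to the all-probe median the receptors stood between -0.01 and 0.06, between 0.05 and 0.10, and between -0.29 and -0.02. The sign of a receptor's ratio to saline turned with the centring in some groups, while Cyp26a1 stayed below 0 in all 3 groups under these 4 centrings. Each centring takes 1 constant off all probes of an array, so they are not 4 separate checks. In the positive control the all-probe median was itself below 0 under all 4, from -0.59 to -0.09.

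In the limma model over all probes, with Benjamini-Hochberg adjustment at 0.05, 1 of the 6 genes passed against saline with adefovir, where 1.67% of the 120 probes passed. With tenofovir 1 of 6 passed, again beside 1.67% of all probes. In the positive control 1 of 6 passed, beside 41.7% of all probes (21.7% passed as higher and 20.0% as lower). The gene was Cyp26a1, lower than saline, each time. Nothing is read from these counts, since this contrast chose Cyp26a1 for the antivirals. In the positive control the call was lost when animal 1, 3 or 4 was left out. Without animal 2 the count rose to 2 of 6, Cyp26a1 and Rara. With the dye effect of tenofovir alone, Rxrb passed in place of Cyp26a1.

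**Figure D3:**
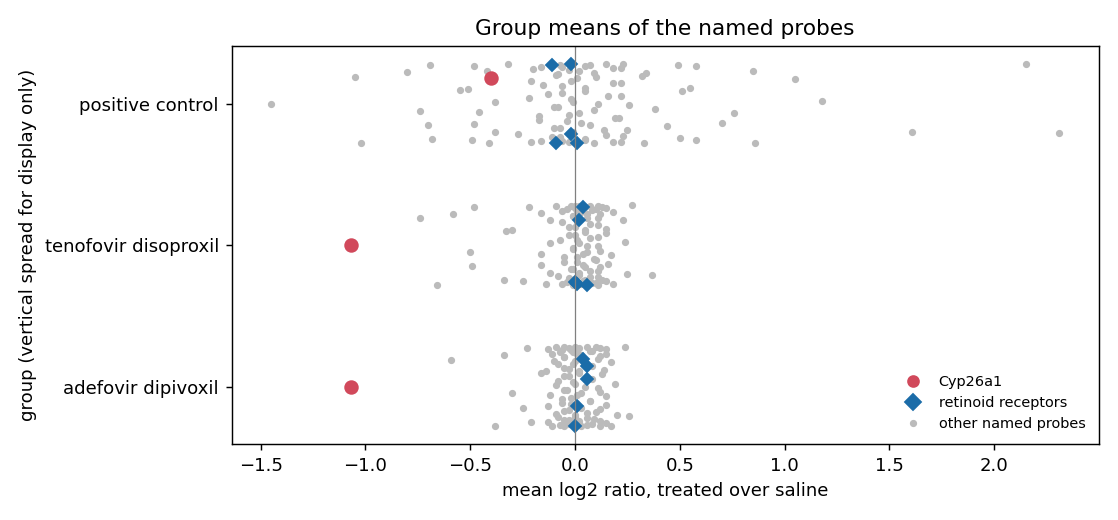
Mean log2 ratio of treated over saline for the 110 probes with a gene name, in 3 groups, with Cyp26a1 as a red circle and the retinoid receptors as blue diamonds. Cyp26a1 is the leftmost probe with both antivirals, at -1.07, and lies inside the spread of the probes in the positive control, at -0.40.

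The antivirals were compared directly, since both were given at 25 mg/kg on the same schedule. Both parent drugs are adenine nucleotide analogues with an acyclic phosphonate chain, and tenofovir differs from adefovir by a methyl group on that chain. The ester groups that mask the phosphonate also differ between the prodrugs, so that equal weights are not equal molar doses. Both groups share the saline pool as their reference, so the spread between saline animals does not enter the difference. The measured saline signal of Cyp26a1 was not alike in the 2 groups. After background subtraction its median was 46.7 and 217 intensity units (adefovir, tenofovir) with treated RNA in Cy3. With treated RNA in Cy5 it was 307 and 243. The part of that signal in the difference was not tested.

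No difference between the antivirals passed the test for any of the 6 genes. For Cyp26a1 adefovir minus tenofovir was -0.01, with a 95% interval of -0.36 to 0.35 (limma, adjusted p = 0.983). The treated channel was above background for Cyp26a1 on only 3 of the 20 antiviral arrays, so this difference compares values that lie mostly at background. For Rxra the difference was 0.05 (-0.16 to 0.26), for Rxrb -0.06 (-0.20 to 0.07) and for Rara -0.01 (-0.14 to 0.12), each with a limma adjusted p of 0.983. Rara was above background in neither channel on 7 of 10 adefovir and 10 of 10 tenofovir arrays. For Rxra those counts were 5 and 8, and for Rxrb 5 and 4. For Rarg and Rxrg, at background throughout, the values were 0.00 (-0.15 to 0.15) and 0.06 (-0.07 to 0.20). Of all 120 probes 0 passed (0.00%), with 3 at an unadjusted p under 0.05 in the same limma model and a smallest adjusted p of 0.983. These intervals do not show that the drugs act alike.

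**Figure D4:**
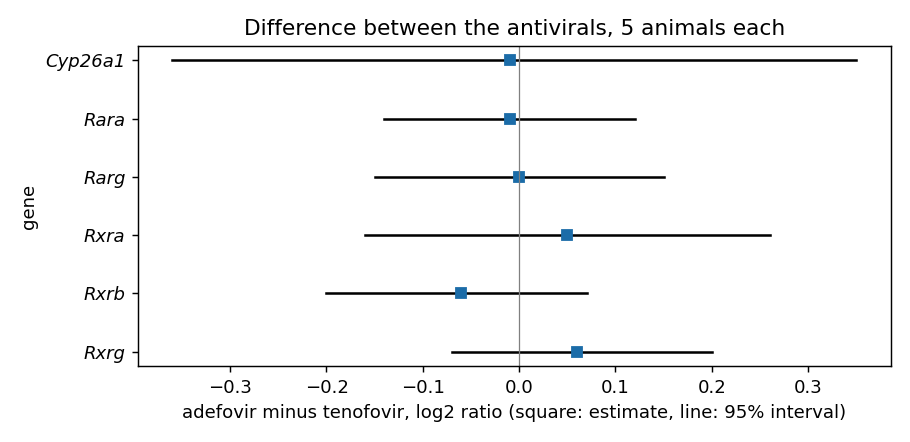
Adefovir minus tenofovir difference of the log2 ratio for the 6 genes, with squares for the estimates and lines for 95% intervals from the limma model (5 animals per antiviral). All intervals include 0, and that of Cyp26a1 is the widest, from -0.36 to 0.35.

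Under the main setting both antivirals had the same Cyp26a1 mean, but their dye-exchanged arrays ran in opposite directions. With adefovir in Cy3 the ratios were -1.0, -0.91, -0.64, -0.36 and -0.86 in animals 1 to 5, and with adefovir in Cy5 they were -1.65, -1.82, -1.37, -0.95 and -1.15. With tenofovir in Cy3 they were -1.34, -1.73, -1.90, -0.96 and -1.18, and with tenofovir in Cy5 -0.17, -0.60, -1.05, -0.90 and -0.84. Every adefovir animal was thus lower with its RNA in Cy5, and every tenofovir animal was lower with its RNA in Cy3.

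On Cy3 arrays alone the means were -0.75 and -1.42, a difference of 0.67. On Cy5 arrays alone they were -1.39 and -0.71, a difference of -0.68. The dye effect of an animal was taken as its Cy3 minus Cy5 value divided by 2, a measure added after these values were seen. It was 0.32 ± 0.114 with adefovir and -0.35 ± 0.245 with tenofovir (SD, n = 5 each), higher in all 5 adefovir animals than in any tenofovir animal. The means lay 0.67 apart. This is a description, and the difference was not tested, because the measure was built on the arrays that showed it. For the 5 receptors the same measure differed between the drugs by -0.14 (Rarg) to 0.10 (Rxra).

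**Figure D5:**
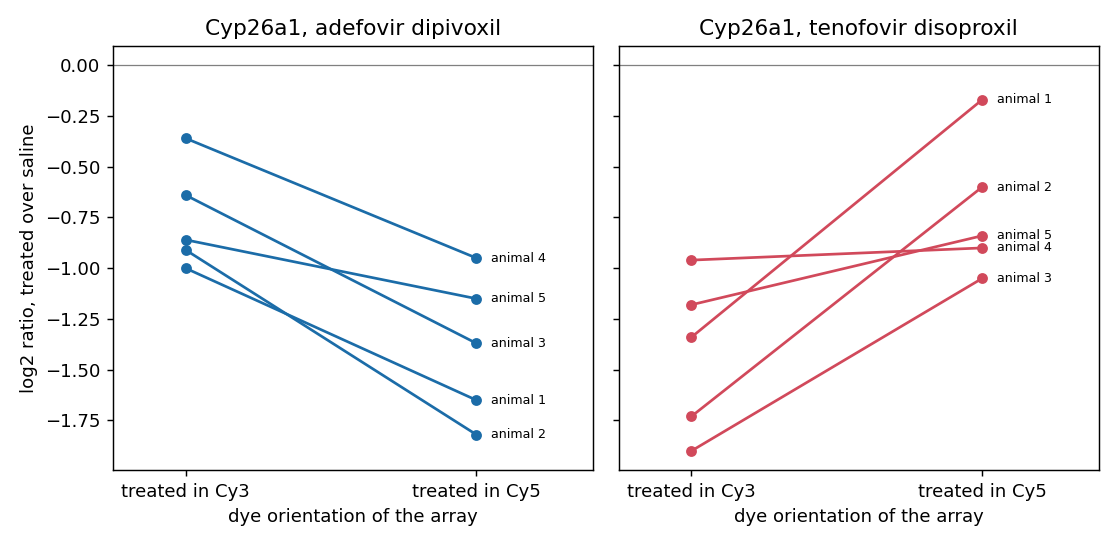
Cyp26a1 log2 ratio of treated over saline on the 20 antiviral arrays, with a line joining the dye-exchanged arrays of each animal. The lines fall from Cy3 to Cy5 in 5 of 5 adefovir animals and rise in 5 of 5 tenofovir animals.

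The signal behind these values differed with the dye and, with treated RNA in Cy3, between the drugs. There the background-subtracted treated signal had a median of 20.7 intensity units with adefovir and 42.3 with tenofovir. The saline signal had 46.7 and 217. With treated RNA in Cy5 the background-subtracted treated signal had a median of -5.67 intensity units with adefovir and -0.333 with tenofovir, so that those arrays give a ratio to background. The treated channel was above background on 0 of these 10 arrays, and the saline channel on 10 of 10. Before loess scaling the means were -0.33 and -0.53 in Cy3 and -1.57 and -1.73 in Cy5, and the drugs then differed in the dye effect by 0.02. The difference was 0.35 without background correction, 0.58 with an offset of 10, and between 0.61 and 0.94 under the 4 other centrings. The part of signal level and scaling in the pattern was not tested.

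The authors' deposited table holds a log2 ratio for Cyp26a1 on 6 of the 28 arrays, all with treated RNA in Cy3. In the authors' deposited table it is -0.49, -0.81 and -0.31 for adefovir animals 1, 3 and 4. For tenofovir animals 1, 2 and 3 the authors' deposited table gives -0.92, -0.70 and -0.89. All 6 are below 0 and below the medians of their columns, which run from 0.20 to 0.94. The authors' deposited table is blank for Rara, Rarg and Rxrg on every array, and holds 6 values each for Rxra and Rxrb. Rxra runs there from -0.41 to 0.55 and Rxrb from -0.37 to 0.94. In a limma fit of the authors' deposited table, the Rxrb mean with tenofovir is 0.83 and passes against saline, beside Cyp26a1 at -0.84. That Rxrb mean rests on 0.94, 0.66 and 0.88 in the authors' deposited table, for tenofovir animals 1, 2 and 3, all in Cy3. The medians of those columns are 0.25, 0.65 and 0.78, and the fit did not take them off.

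Of 32 genes listed for retinoid metabolism and transport, 3 were measured: Cyp26a1, Cyp1a2 and Cyp3a13. Cyp1a2, a drug-oxidising P450 that also accepts retinoids, fell with adefovir by 0.59 on the log2 scale (SD 0.297, n = 5) and rose in the positive control by 2.31 (SD 0.379, n = 4). Its value with tenofovir, which did not pass, was -0.22. Cyp3a13, a P450 that oxidises steroids and drugs, had -0.01 and 0.07 with the antivirals and rose by 0.86 (SD 0.480, n = 4) in the positive control. Here and in the lists below, positive-control values come from the 4 arrays whose Cy5 saline channel is marked as bad. The list medians were -0.59, -0.22 and 0.86 for adefovir, tenofovir and the positive control, beside all-probe medians of 0.00, 0.02 and 0.00. With 1 of its 3 measured genes being Cyp26a1 itself, the list is no independent measure.

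Among dimer partners of RXR, 11 of 16 listed genes were measured, Rara and Rarg included, and 0 of 11 passed with either antiviral, beside 1.67% of all probes. Ppara, the fatty acid receptor, had 0.20 ± 0.173 with adefovir and 0.27 ± 0.336 with tenofovir (SD, n = 5 each), and -0.20 ± 0.320 (SD, n = 4) in the positive control. Nr1h4, the bile acid receptor FXR, had 0.07, 0.11 and -0.17 in the same order. Nr1i3, the xenobiotic receptor CAR through which phenobarbital acts, had 0.15, 0.12 and -0.04. In the positive control 1 of 11 passed, beside 41.7% of all probes, namely Pparg at 0.18, although it was above background on none of the 28 arrays. The list medians were 0.06, 0.05 and -0.02.

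Of 20 listed coregulators and orphan receptors, 10 were measured and 0 passed with either antiviral, beside 1.67% of all probes. In the positive control 1 rose and 2 fell, where 21.7% of all probes passed as higher and 20.0% as lower. Nr2f6, an orphan receptor of the COUP-TF family, rose by 0.26 (SD 0.217, n = 4). Nr1d2, the clock repressor REV-ERBβ, fell by 0.48 (SD 0.240, n = 4), and Ppargc1a, the coactivator PGC-1α, fell by 0.38 (SD 0.207, n = 4). The all-probe median of the positive control was 0.00 after loess scaling and -0.59 with the calibration RNAs as the reference. A rise or fall in this group is thus stated for loess scaling only. Hnf4a, a master regulator of hepatocyte genes, had 0.11, 0.18 and 0.02 with adefovir, tenofovir and the positive control. Nr2f2, the COUP-TFII repressor, had -0.03, 0.11 and -0.06, and Nr5a2, the LRH-1 receptor, had -0.13, 0.11 and 0.18. The list medians were 0.04, 0.09 and -0.04.

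The probes whose ratio varied most like that of Cyp26a1 were taken over the 10 antiviral animals, among 65 probes above background on most antiviral arrays. Pearson's r with Cyp26a1 was 0.809 for Cyp2b13, 0.643 for Cyp2a4, 0.636 for Nr1d2, and 0.502 for both Cyp2b10 and 1 of several Gapdh probes. Over all 14 animals the same probes had 0.716, 0.0196, -0.287, 0.778 and -0.260. The treated signal behind the Cyp26a1 values lay mostly at background. Across the 65 probes r ran from -0.480 to 0.809 with a median of 0.06. The receptors had r between 0.0517 (Rxrb) and 0.388 (Rxra). All points share the saline pool and the scaling of the array, and the order is that of a description.

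The tissue label was checked on hepatocyte markers, of which 8 of 11 were measured and 7 were above background on most arrays. Of the 8, 0 passed with either antiviral, beside 1.67% of all probes, with list medians of 0.01 in both groups. In the positive control 1 rose and 3 fell, beside 21.7% and 20.0% of all probes, with a list median of -0.16. Cyp2e1, an ethanol-oxidising P450, fell by 1.45, Slc10a1, the bile acid uptake carrier, by 0.70 and Cyp7a1 by 0.21. Cyp8b1 rose by 0.70. Abcb11, Apoa1, Cyp27a1 and Hnf4a did not pass there, at 0.18, -0.22, -0.10 and 0.02. The listed markers of stellate cells, where vitamin A is stored, and of Kupffer, endothelial, biliary and lymphoid cells had no named probe. The share of those cells in each liver is therefore not known from this array.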

How the data were processed

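The study measured liver RNA of 14 treated mice against a saline pool on 28 2-colour arrays. The deposited file of each array gives the median intensity of every spot in both channels with the median and SD of its local background, per the file headers, with no background subtraction or normalization. The authors also deposited a table of log2 ratios per probe and array, whose scaling was not given in the sources used here. That table is blank for 53.3% of gene values. Treated and saline channels were taken from the dye labels.

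Background was corrected with normexp (offset 50), and each array was scaled by loess (span 0.3) over gene spots, with control spots at weight 0 (R 4.3.3, limma 3.58.1). Of 578 spots, those of 1 probe were averaged, as were the dye-exchanged arrays of an animal. The dye effect of each probe, from the antiviral exchanges, was taken off the values of the positive-control arrays, all of 1 orientation. It was taken off as a constant, so its own error enters neither the SDs nor the tests of that group. The 14 animals entered a linear model with a mean for each group (11 residual and 3.36 prior degrees of freedom) with eBayes and Benjamini-Hochberg adjustment over 120 probes. A mean against saline is tested against 0 and leaves out the spread between saline animals, because the reference is 1 pool. The 95% intervals are those of the model's coefficients. The number of arrays limits the precision. The model was tested on simulated data.

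Above background, arrays held 64 to 88 probes for treated antiviral RNA in Cy3 and 30 to 60 in Cy5. The 10 probes without a name in the platform's annotation are counted and not named. Replicate numbers were checked for pairing by the correlation of same-numbered adefovir and tenofovir animals, which ran from -0.210 to 0.271 over 5 pairs, so no pairing was used. Alternatives were the background correction, offset, centring, spot median, a filter on dim probes, each dye alone, the deposited table, a replicate block, the dye effect of 1 antiviral alone (chosen after seeing the data) and each animal left out. The 6 genes and the gene lists were chosen with earlier results of these data known. Named genes are the 6, the list members above background on most arrays, any list member that passed, and the 5 probes most like Cyp26a1 by Pearson's r over 10 antiviral animals. Promoters came from RefSeq (GRCm38.p6, all 6 genes matched, 13 windows), and figures were drawn with Python 3.11.15 and matplotlib 3.10.9.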

Additional observations from a re-analysis of the deposited data

Results flagged for a closer look

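The dye effect of Cyp26a1, the Cy3 minus Cy5 value of an animal divided by 2, was above 0 in all 5 adefovir animals and below 0 in all 5 tenofovir animals, with means of 0.32 and -0.35 that lay 0.67 apart. The difference was not tested. It was 0.02 before loess scaling.

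Rarg in positive-control animal 2 stood apart from the other 3 animals of its group at a log2 ratio of -0.07, against -0.01 to 0.00, with both channels at background. Rxrb in tenofovir animal 1 stood apart at 0.24 from the other 4 animals, which lay between -0.02 and 0.05. Chance sets 1 animal apart in this way in about 1 of 20 groups, and 18 groups were examined.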

How the results depend on the processing

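The adefovir minus tenofovir difference passed for no gene and no probe tested, under 13 alternatives and without each of 14 animals. Each took in all 6 genes and 120 probes, except the filter on dim probes (67 probes, 1 of the 6 genes) and the authors' deposited table (75 probes, and 3 of the genes: Cyp26a1, Rxra and Rxrb). For Cyp26a1, -0.01 in the report, it turned to 0.02 without background correction, 0.03 with median centring, 0.67 on Cy3 arrays alone (limma adjusted p = 0.167) and 0.30 in the authors' deposited table, and it ran from -0.11 to 0.07 with 1 animal left out. Adjusted p-values of this limma difference ran from 0.138 to 1.0. Rara turned to 0.00 without background correction, and ran from -0.03 to 0.01 with 1 animal left out. Rarg turned to 0.04 with spot medians and 0.14 in Cy5 alone, and ran from -0.04 to 0.06. Rxra turned to -0.09, -0.25, -0.21 and -0.29 with median, calibration, luciferase and reference-gene centring, -0.05 in Cy5 alone and -0.23 in the authors' deposited table. Rxrg turned to -0.06, -0.23, -0.19 and -0.26 under the same centrings, and Rxrb to 0.02 in Cy5 alone. Without turning, Rxrb moved furthest, from -0.06 to -0.72 in the authors' deposited table. With reference-gene centring Rxrb was -0.36, Rara -0.33 and Rarg -0.28. With the replicate number as a block the Cyp26a1 difference was -0.01, and 0 genes passed.

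Cyp26a1 against saline was -1.57 and -1.38 (adefovir, tenofovir) with offset 10, -0.75 and -1.42 in Cy3 alone, and -1.39 and -0.71 in Cy5 alone. It was -0.54 for adefovir in the authors' deposited table (3 animals), and -1.03, -1.01 and -0.95 in the positive control with calibration, luciferase and reference-gene centring. With the dye effect of adefovir or of tenofovir alone, chosen after seeing the data, it was -0.74 or -0.07, and in the latter Rxrb passed and Cyp26a1 did not. Genes passing in the positive control, 1 in the report, were 2 with median centring (Cyp26a1 and Rxrb), 6 with each of the other 3 centrings, and 0 to 2 with 1 animal left out. With adefovir they were 2 in Cy5 alone (Cyp26a1 and Rarg) and 0 in the authors' deposited table, and with tenofovir 2 in that table. The untested dye effect difference of Cyp26a1, 0.67 in the report, was 0.02 before loess, 0.35 without background correction and 0.94 with luciferase centring, and ran from 0.61 to 0.75 with 1 animal left out. The cause of these shifts was not tested. Signal over background limits every receptor and the treated channel of Cyp26a1.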
